A study of Mus musculus with 13 samples.

Results

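The 8 transcripts described here mark 2 kinds of blood cell in RNA taken from a brain region. S100a8 and S100a9 mark neutrophils, and Hbb-bs, Hbb-bt, Hba-a1, Hba-a2, Alas2 and Slc4a1 mark red cells. They were taken by symbol, 8 of the 34745 genes in the deposited expression table, as a measure of blood cells in the olfactory bulb of mice given PM2.5, the fine fraction of airborne particulate matter. The 10 mg/kg group (3 samples, labelled 2nd) was set against 3 untreated controls of the 2nd set. The 3 mg/kg group (3 samples, labelled 1st) was set against 4 untreated controls of the 1st set. All 13 samples came from wild-type C57BL/6 mice aged 7 to 8 weeks, with 1 library of total RNA for each sample. The dose labels add "/3 day". What that means, the route of exposure, whether blood was flushed from the vessels before dissection and the sense of 1st and 2nd are not stated in the labels or files used here. No label ties the replicates to separate animals, so each p-value sets a difference against the spread between the samples at hand, which may be technical.

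Library totals ran from 20.2 to 25.5 M counts at 10 mg/kg, from 15.4 to 27 M in the 2nd-set controls, from 14.3 to 14.7 M at 3 mg/kg and from 13 to 14.1 M in the 1st-set controls. All 10 olfactory bulb markers were detected in every library. Detection here means any count, so it is a weak check of the labelled tissue. The series describes male mice, but Xist, expressed from the inactive X chromosome, stood at 2245 CPM or above in each 1st-set library and at 0.555 CPM or below in each 2nd-set library (CPM, counts per M of the TMM-scaled library total). A sum of 4 Y-linked genes was at most 0.210 CPM in the 1st set and at least 177 CPM in the 2nd. Dose, set and the level of these sex-linked genes change together and cannot be told apart. Each dose was therefore compared only with controls of its own set.

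S100a8 and S100a9 pair to form calprotectin, a calcium- and zinc-binding protein that fills the cytoplasm of neutrophils and is also made by some monocytes. When released it can act on receptors such as Tlr4. Red cells and their precursors carry the adult globins, the alpha and beta chains of hemoglobin. Alas2 is the red-cell form of the first enzyme of heme synthesis, and Slc4a1 (band 3) is the chloride and bicarbonate exchanger of the red cell membrane. Mature mouse red cells have lost their nucleus and retain RNA mainly while young. Low globin expression has also been described in some neurons, so globin RNA in brain tissue is not a marker of blood alone.

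Each globin in the list has a near copy beside it in the genome. Hbb-bs (mm10 chromosome 7, 103826534 to 103828096, minus strand) and Hbb-bt (103812524 to 103813996, minus strand) lie 12537 bases apart. Hba-a1 (chromosome 11, 32283511 to 32284465, plus strand) and Hba-a2 (32296489 to 32297298, plus strand) lie 12023 bases apart. Within each pair the coding sequences, 444 bases for the beta genes and 429 for the alpha genes, differ at 1 base, an identity of 99.77%. The stretches below, from GENCODE M21 transcripts, run over coding bases 384 to 444 of the beta pair and 351 to 411 of the alpha pair. They are shown because they hold the 1 coding base, in capitals, at which the genes of a pair differ, so that a read from elsewhere in the coding sequence matches both.
Hbb-bs: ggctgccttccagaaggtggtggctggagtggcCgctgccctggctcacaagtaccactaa
Hbb-bt: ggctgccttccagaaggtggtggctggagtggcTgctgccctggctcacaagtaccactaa
Hba-a1: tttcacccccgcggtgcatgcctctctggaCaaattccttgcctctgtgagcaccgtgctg
Hba-a2: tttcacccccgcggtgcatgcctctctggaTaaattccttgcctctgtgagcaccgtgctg
Of all 100-base windows of the transcripts, untranslated ends included, 62.6% of those of Hbb-bs and 54.8% of those of Hbb-bt occur letter for letter in the partner, as do 56.5% of those of Hba-a1 and 74.5% of those of Hba-a2. How the authors' counting divided reads between such copies is not stated in the labels or files. The single-gene globin values are therefore uncertain, and sums over the copies are given beside them. S100a8 and S100a9 share no 100-base window, so the same doubt does not apply to them.

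S100a8 (chromosome 3, 90668978 to 90670035, plus strand) and S100a9 (90692632 to 90695721, minus strand) lie 22596 bases apart on opposite strands. S100a9 was the 1 transcript of the 8 that passed the test at either dose. At 10 mg/kg it had 1.94, 3.47 and 3.03 CPM, against 0.460, 0.580 and 0.309 CPM in the 2nd-set controls. All 3 exposed libraries were above all 3 controls, and the lowest exposed library was more than 3 times the highest control. S100a9 rose 6.02-fold (log2 fold change 2.59, SE 0.40, adjusted p = 0.00845 by edgeR's quasi-likelihood test with Benjamini-Hochberg adjustment over 17467 genes). These levels rest on 39, 69 and 76 counts, against 7, 15 and 5. The call was lost when replicate 3 of the 2nd-set controls was left out (2.40, adjusted p = 0.0540); over all 13 fits that left out 1 library the value stayed between 2.40 and 2.84. The call was also lost in a fit of the 2nd set alone (2.60, adjusted p = 0.0986).

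S100a8 had 2.43, 4.03 and 3.55 CPM at 10 mg/kg, against 0.329, 1.24 and 0.740 CPM in the 2nd-set controls. The groups did not overlap, with the exposed replicate 1 lowest of its group and the control replicate 2 highest of its own. The log2 fold change was 2.04 (SE 0.49), with an adjusted p of 0.0861 by edgeR that missed the threshold of 0.05. Leaving out 1 library gave 1.73 to 2.60, with a call only without replicate 2 of the 2nd-set controls (adjusted p = 0.0455). DESeq2 gave an adjusted p of 0.0139 and limma on log2(FPKM + 1) 0.0410, while it was 0.119 by limma on log2(FPKM + 0.1) and 0.274 with the 2nd set fitted alone.

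Per length of transcript the calprotectin subunits were about level with each other. S100a8 averaged 3.33 ± 0.814 FPKM and S100a9 3.80 ± 1.06 FPKM at 10 mg/kg, against 0.760 ± 0.438 and 0.603 ± 0.173 FPKM in the 2nd-set controls (FPKM, fragments per kb of transcript and M mapped; SD, n = 3 each). The ratio of S100a8 to S100a9 in FPKM was 0.930, 0.858 and 0.866 in the exposed libraries and 0.528, 1.58 and 1.78 in the controls. The exposed libraries thus sat close together, inside the wider span of controls with far fewer counts. Summed, the subunits came to 4.37, 7.50 and 6.59 CPM at 10 mg/kg, against 0.789, 1.82 and 1.05 CPM in the 2nd-set controls. The ratio of geometric means was 5.23, and the difference of 2.39 on the log2 scale was well above the pooled SD of 0.52.

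At 3 mg/kg S100a9 had 1.14, 0.902 and 0.542 CPM, against 0.529, 0.422, 0.699 and 0.213 CPM in the 1st-set controls. The third exposed library lay inside the control range and the other two above it. The log2 fold change was 0.88 (SE 0.43, adjusted p = 1). S100a8 had 1.07, 1.25 and 0.542 CPM, against 0.227, 0.352, 0.489 and 1.28 CPM in the 1st-set controls (0.69, SE 0.55, adjusted p = 1). Control replicate 4 was above all exposed libraries for S100a8 and lowest of the 7 for S100a9. The summed subunits overlapped too, at 2.20, 2.15 and 1.08 CPM, against 0.756, 0.774, 1.19 and 1.49 CPM. The responses at the 2 doses were tested against each other. The difference was 1.71 for S100a9 (SE 0.60, adjusted p = 0.709) and 1.35 for S100a8 (SE 0.74, adjusted p = 0.928), so neither was shown to respond more at 10 mg/kg.

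**Figure D1:**
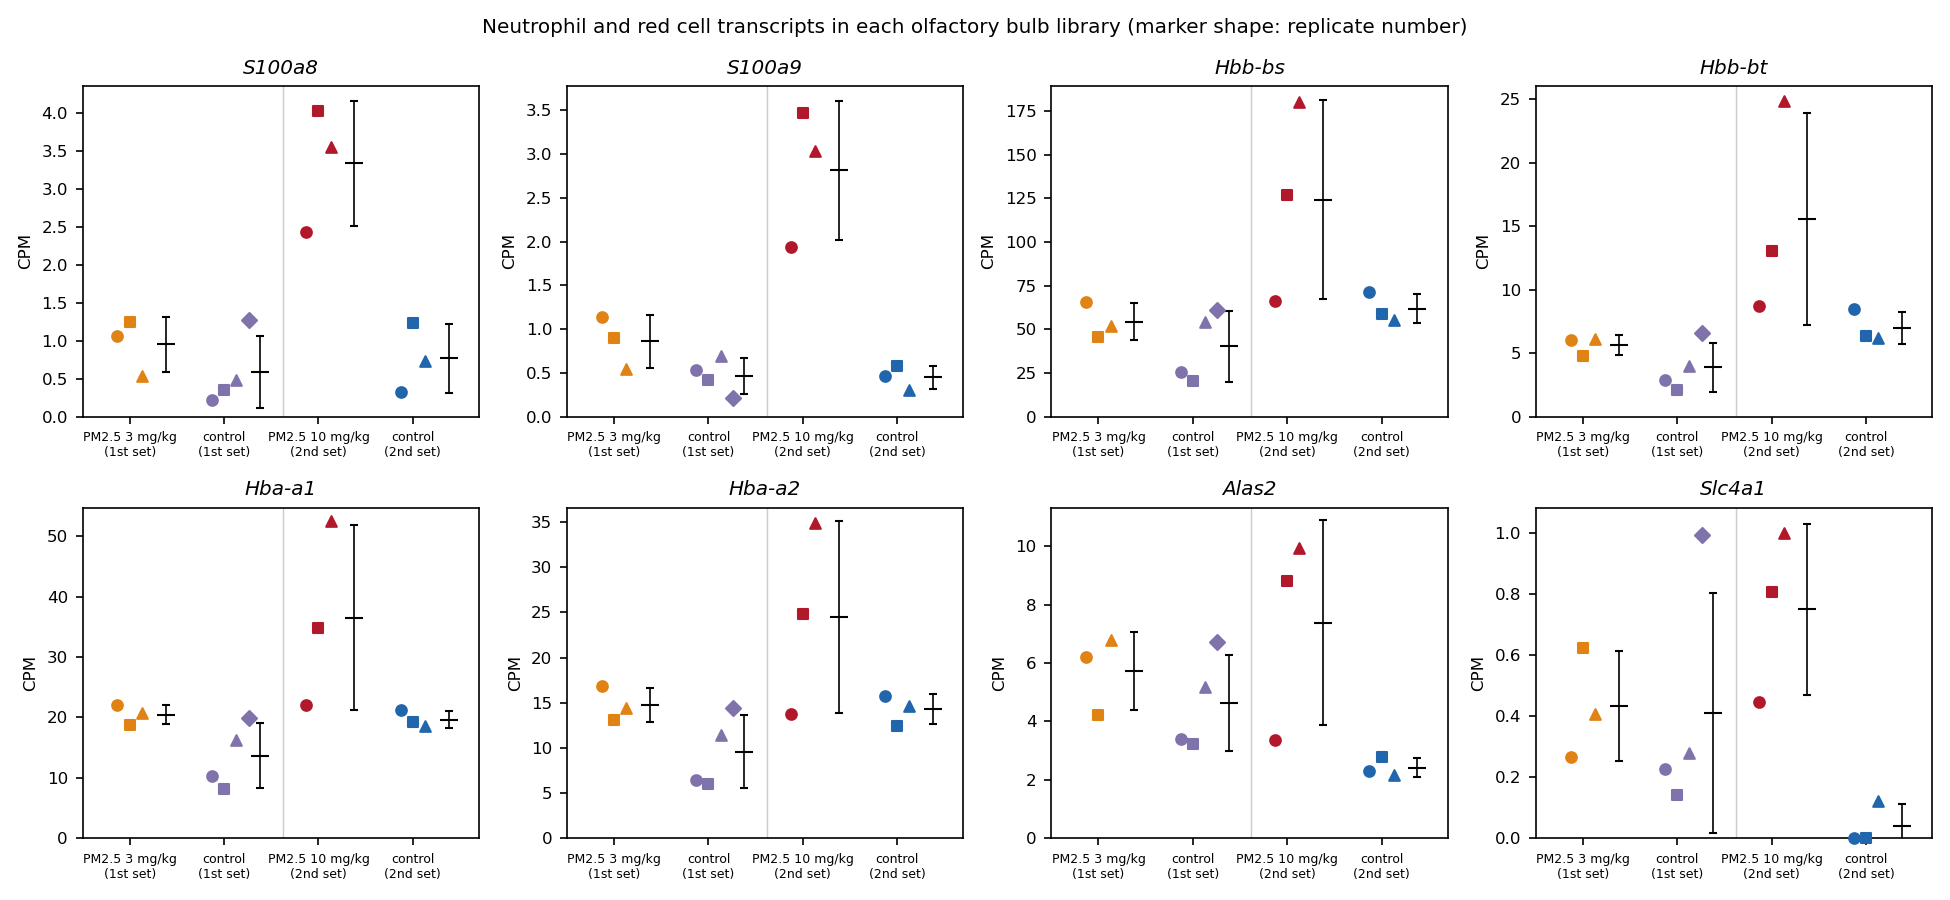
Level of each of the 8 transcripts in every library, as CPM, each gene on its own axis from 0. Points are libraries with marker shape giving the replicate number, and bars are the mean ± SD of the group. S100a8, S100a9, Hbb-bt, Hba-a1, Alas2 and Slc4a1 had all 3 libraries at 10 mg/kg above all 2nd-set controls, while every transcript overlapped at 3 mg/kg.

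The beta globin Hbb-bs was the most abundant of the 8 per length of transcript, at 37.5, 71.8 and 102 FPKM at 10 mg/kg, against 40.7, 32.4 and 31.8 FPKM in the 2nd-set controls. Exposed replicate 1 lay within the controls, and replicates 2 and 3 lay above them. In CPM these libraries had 66.0, 127 and 180, against 71.4, 58.7 and 55.7, and the log2 fold change was 1.01 (SE 0.44, adjusted p = 0.501). Hbb-bt had 8.73, 13.1 and 24.9 CPM, against 8.48, 6.38 and 6.23 CPM, without overlap but with replicate 1 just above the highest control (1.16, SE 0.38, adjusted p = 0.272).

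Among the exposed libraries the alpha genes ran in the same order as the beta genes, with replicate 1 lowest and replicate 3 highest. Hba-a1 had 22.1, 34.8 and 52.5 CPM at 10 mg/kg, against 21.2, 19.2 and 18.5 CPM in the 2nd-set controls (0.90, SE 0.32, adjusted p = 0.338). Hba-a2 had 13.7, 24.9 and 34.9 CPM, against 15.7, 12.4 and 14.6 CPM, with exposed replicate 1 inside the control range (0.79, SE 0.34, adjusted p = 0.476). No globin passed the test. With the copies counted as 1 gene the result stood likewise, at 1.02 for the beta pair (SE 0.44, adjusted p = 0.486) and 0.85 for the alpha pair (SE 0.34, adjusted p = 0.419). The sum of the 4 genes was 111, 200 and 292 CPM, against 117, 96.7 and 95 CPM: exposed replicate 1 lay inside the control range, while replicates 2 and 3 stood above it.

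At 3 mg/kg Hbb-bs had 65.9, 45.6 and 51.9 CPM, against 25.4, 20.5, 54.4 and 61.1 CPM in the 1st-set controls. The controls fell into a low and a high pair of libraries, and the exposed libraries lay near the high pair. Log2 fold changes of the 4 globins ran from 0.43 (Hbb-bs, SE 0.41) to 0.62 (Hba-a2, SE 0.33), each with an adjusted p of 1. The globin sum was 111, 82.2 and 93.1 CPM, against 45, 36.9, 86.1 and 102 CPM. In the difference of doses the globins ran from 0.16 (Hba-a2) to 0.58 (Hbb-bs) and 0.61 (Hbb-bt), none called.

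The make-up of the globin RNA was compared between libraries as well. Globin counts were 0.00372 to 0.0287% of a library's counts. Hbb-bt gave 6.82 to 12.2% of the beta counts and Hba-a2 38.3 to 44.1% of the alpha counts over the 13 libraries. The beta counts were 1.58 to 2.34 times the alpha counts. These shares depend on how reads were divided between copies. The embryonic globins were near 0: of 6 listed, none reached the level needed for a test, and their sum was at most 0.0992 CPM in a 10 mg/kg library, 0.132 CPM in a 2nd-set control, 0.200 CPM in a 3 mg/kg library and 0.0756 CPM in a 1st-set control.

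Alas2 (chromosome X, 150547375 to 150570638, plus strand) overlaps Apex2 and Mir3620 on the other strand, and whether counting used strand is not stated. It had 3.37, 8.81 and 9.94 CPM at 10 mg/kg, against 2.30, 2.78 and 2.16 CPM in the 2nd-set controls. The groups did not overlap, and exposed replicate 1 was again the lowest of its group. The log2 fold change was 1.60 (SE 0.37, adjusted p = 0.0787). Leaving out 1 library gave 1.34 to 1.94, with a call only without exposed replicate 1 (adjusted p = 0.0121). DESeq2 gave an adjusted p of 0.00345, while it was 0.348 with the 2nd set fitted alone and 0.165 or more by limma. The 3 mg/kg libraries had 6.21, 4.23 and 6.77 CPM, against 3.40, 3.24, 5.17 and 6.73 CPM in the 1st-set controls (0.31, SE 0.34, adjusted p = 1), with overlap.

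Slc4a1 (chromosome 11, 102348824 to 102366203, minus strand) was the scarcest of the 8. It had 9, 16 and 25 counts at 10 mg/kg, against 0, 0 and 2 counts in the 2nd-set controls. In CPM these were 0.447, 0.805 and 0.998, against 0, 0 and 0.123, without overlap. Over the groups this is 50 counts against 2, a ratio of 22.0 in CPM with an exact 95% Poisson interval of 5.78 to 187 that covers counting error only. By edgeR the adjusted p was 0.0669; DESeq2 gave 0.0315, and limma 0.340 on log2(FPKM + 1) and 0.165 on log2(FPKM + 0.1). Over the 12 fits that left out 1 library and tested the gene, the fitted log2 fold change of 4.16 ran from 3.41 without replicate 2 of the 2nd-set controls to 6.72 without replicate 3, the library with both control counts. The 3 mg/kg libraries held 4, 9 and 6 counts, against 3, 2, 4 and 14 in the 1st-set controls, a ratio of 1.05 (0.538 to 2.01). Of the 23 control counts 14 lay in replicate 4. Without it, an alternative added after the values were seen, 19 counts stood against 9, a ratio of 2 (0.861 to 5.01), and the gene fell below the filter on low counts. Values of this size lie near the limit of detection. Slc4a1 passed the filter on low counts through 2 libraries at 10 mg/kg and 1 control of the 1st set.

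Across the 8 transcripts, 1 passed the test at 10 mg/kg, where 0.641% of the 17467 genes tested were called (0.521% as higher). All 8 fold changes were positive and the median was 1.38, against -0.01 over all genes tested. Each of the 8 was under an unadjusted p of 0.05, as were 1685 of all genes tested. In 6 of the 8 the groups did not overlap, with the exposed libraries higher, a pattern seen in 6.08% of all genes tested. These counts do not rest on 8 independent genes, since the 4 globins correlated with each other at 0.92 to 0.98 within groups. The 6 include Hbb-bt and Hba-a1, whose near copies Hbb-bs and Hba-a2 overlapped. The sum of the 4 globins overlapped as well, with 111 CPM in the lowest exposed library and 117 CPM in the highest control. By DESeq2 4 passed (S100a8, S100a9, Alas2 and Slc4a1). By limma on log2(FPKM + 1) S100a8 and S100a9 passed. All 8 passed the filter on low counts. S100a9 reached its cutoff of 0.682 CPM in 3 libraries at 10 mg/kg and in 0 of the 2nd-set controls. For Slc4a1 these were 2 and 0. Passing through exposed libraries favors positive values, so for these genes the signs and the median above may carry that bias. In bulk tissue more cells of a type and more RNA per cell cannot be told apart.

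At 3 mg/kg edgeR called none of the 8, and none of all genes (0%). None of the 8 was under an unadjusted p of 0.05, while 429 genes of the table were. DESeq2 and limma called none of the 8 either. All 8 fold changes were positive, with a median of 0.56, and in each gene the groups overlapped, where 3.71% of all genes tested had exposed libraries above all controls. In the difference of doses edgeR called none of the 8, where 0.00573% of genes were called, and 3 of the 8 were under an unadjusted p of 0.05 (S100a9, Alas2 and Slc4a1), as were 1046 of all genes tested.

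**Figure D2:**
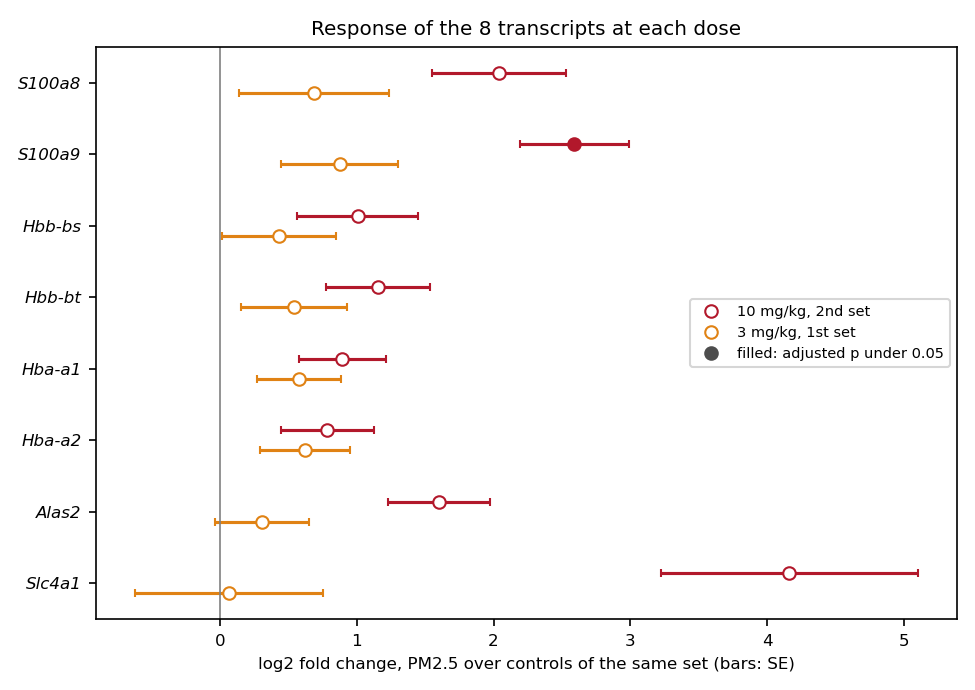
Log2 fold change of each transcript at 10 mg/kg over the 2nd-set controls and at 3 mg/kg over the 1st-set controls, with SE bars, from the edgeR fit. The filled point, S100a9 at 10 mg/kg, is the 1 value that passed an adjusted p of 0.05. The value of 4.16 fitted for Slc4a1 rests on 2 control counts.

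The proportion of calprotectin to globin RNA was higher in each library at 10 mg/kg than in any 2nd-set control. For each 1000 globin counts, the 10 mg/kg libraries held 39.5, 37.6 and 22.5 counts of S100a8 and S100a9, against 6.76, 18.8 and 11 in the 2nd-set controls. These groups did not overlap, and the ratio of geometric means was 2.88. The difference of 1.53 on the log2 scale exceeded the pooled SD of 0.61. That alone does not set the ratio apart, since differences of sums whose groups overlapped did so too. These were 0.86 against 0.51 for the globin sum at 10 mg/kg. At 3 mg/kg they were 0.78 against 0.52 for the calprotectin sum and 0.62 against 0.57 for the globin sum. Exposed replicate 1, whose globin sum lay within the controls, had the highest ratio. The 3 mg/kg libraries had ratios of 19.9, 26.2 and 11.6, against 16.8, 21.0, 13.8 and 14.6 in the 1st-set controls, with overlap and a difference of 0.16.

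Within groups, the library-to-library variation of the 2 cell types was compared after subtracting each group's mean from log2 values. Calprotectin and globin sums gave Pearson r = 0.54 over 13 libraries (exact permutation p = 0.0787, adjusted 0.118) and Spearman rho = 0.45 (p = 0.160, adjusted 0.241). The value was 0.33 without the 2 libraries farthest from the median globin level. It was 0.65 in the 7 libraries of the 1st set (exact permutation p = 0.125) and 0.39 in the 6 of the 2nd (p = 0.583). No relation was thus established at this number of libraries.

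Alas2 did follow the globins, in a relation computed after the values were seen. Pearson r was 0.88 (exact permutation p = 0.00367, adjusted 0.0110 over 3 relations) and rho 0.87 (p = 0.00868, adjusted 0.0260), with r = 0.82 when those 2 libraries were left out. It was 0.90 in either set (exact permutation p = 0.0486 in the 1st, 0.0833 in the 2nd). S100a8 and S100a9 gave r = 0.11 (exact permutation p = 0.742, adjusted 0.742) and rho = 0.24 (p = 0.475, adjusted 0.475), with r = -0.21 in the 1st set (p = 0.674) and 0.60 in the 2nd (p = 0.25). The value was 0.47 without the 2 libraries farthest from the median S100a9 level. Counts of 3 to 18 in each 1st-set control limit what this pair can show.

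**Figure D3:**
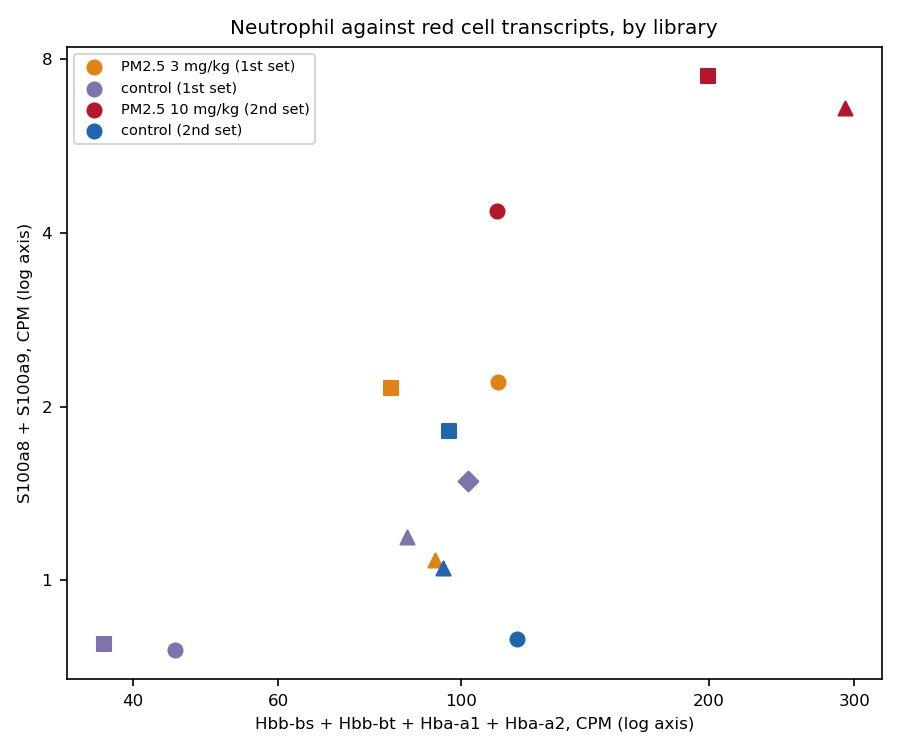
Summed S100a8 and S100a9 against the summed adult globins in each library, both as CPM on log axes, colored by group with marker shape giving the replicate number. The 3 libraries at 10 mg/kg lie highest, between 4.37 and 7.50 CPM of calprotectin, with one of them at 111 CPM of globin, inside the 95 to 117 CPM of the 2nd-set controls.

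The untreated bulbs of the 2 sets were compared as well, and the 8 transcripts were not called more often than genes at large. Slc4a1 had 2 counts over the 2nd-set controls, against 23 over the 1st-set controls, and was called lower by edgeR (log2 fold change -3.29, SE 1.02, adjusted p = 0.0363). The ratio in CPM was 0.0848, with an exact 95% Poisson interval of 0.00969 to 0.343 for counting error. Without replicate 4 of the 1st-set controls, which held 14 of the 23 counts, the ratio was 0.162 (0.0170 to 0.783) and the gene fell below the filter, so no test was made. It was the 1 of 8 called, where 19.3% of genes were called (8.74% as lower). The call was lost without replicate 1 (-2.92, adjusted p = 0.0739) or without replicate 2 (-2.55, adjusted p = 0.163) of the 2nd-set controls, and the fitted value was -5.84 without replicate 3. Limma did not call it, with adjusted p-values of 0.232 on log2(FPKM + 1) and 0.116 on log2(FPKM + 0.1). Alas2 lay lower in all 2nd-set controls, with no overlap (-0.93, SE 0.36, adjusted p = 0.0858), as were 14.6% of all genes, while the globins leaned the other way, from 0.52 (Hba-a1) to 0.85 (Hbb-bt), none called.

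Alas2 per 1000 globin counts separated the sets. It was 30.5, 44.1 and 34.0 at 10 mg/kg and 19.7, 28.8 and 22.7 in the 2nd-set controls, and 56.1, 51.5 and 72.8 at 3 mg/kg and 75.5, 87.8, 60.1 and 66.0 in the 1st-set controls. No library of one set reached the range of the other. Within the 2nd set all exposed libraries were above all controls; within the 1st set the groups overlapped. S100a8 (0.45, SE 0.54, adjusted p = 0.579) and S100a9 (-0.01, SE 0.46, adjusted p = 0.987) were not called between the control groups.

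**Figure D4:**
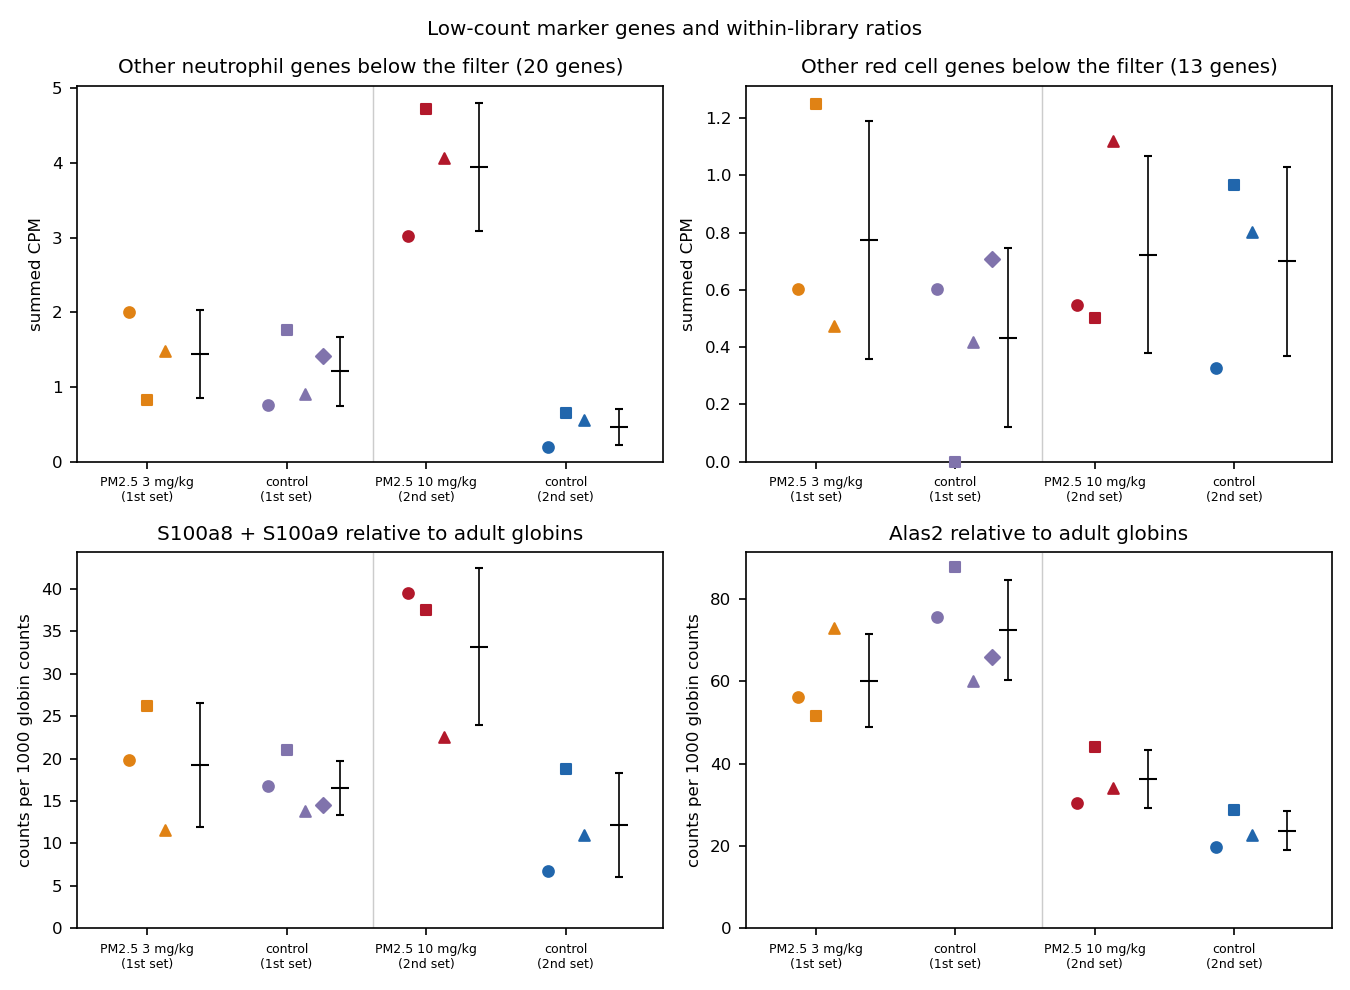
The upper panels sum, by library, the other neutrophil genes (20) and other red cell genes (13) that were too scarce to test, as CPM, and the lower panels give calprotectin and Alas2 counts per 1000 globin counts. Points are libraries, bars are mean ± SD. The neutrophil sum at 10 mg/kg lies between 3.03 and 4.73 CPM, above the 0.197 to 0.657 CPM of the 2nd-set controls, while the red cell sums overlap.

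Other neutrophil genes gave low counts on the same side at 10 mg/kg. Of 28 further genes in the neutrophil list, 8 were abundant enough to test. By edgeR none passed at 10 mg/kg and the median was 0.52. Of the 8, 3 were under an unadjusted p of 0.05, as were 1685 of all 17467 genes tested. All 8 were positive, as were 47.2% of all genes tested. Scarce genes can pass the filter (0.682 CPM) through exposed libraries, which favors positive values. Lcn2 and Ltf averaged below 0.682 CPM in the 2nd-set controls. Against the 1st-set controls the 2nd-set controls were low for most of the 8, with a median of -0.43 and 2 positive. There edgeR called 1 of the 8, as higher. DESeq2 called 1 (Ltf), limma on log2(FPKM + 0.1) 1 (Lcn2) and limma on log2(FPKM + 1) none. Lcn2, an iron-siderophore binding protein of neutrophil granules that other cells also make, averaged 14.8 ± 7.48 CPM at 10 mg/kg, against 0.268 ± 0.249 CPM in the 2nd-set controls (SD, n = 3 each; log2 fold change 5.70, SE 1.20, adjusted p = 0.0772). The granule protein Ltf averaged 1.72 ± 1.32 CPM, against 0.0992 ± 0.120 CPM (3.80, SE 0.91, adjusted p = 0.0938). Ltf ranged from 0.248 to 2.79 CPM in the exposed libraries, so 1 of them was near the control maximum of 0.232 CPM.

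The 20 remaining neutrophil genes were too scarce to test one by one. Their summed counts were 61, 94 and 102 at 10 mg/kg, or 3.03, 4.73 and 4.07 CPM, against 3, 17 and 9 counts, or 0.197, 0.657 and 0.555 CPM, in the 2nd-set controls. The exposed libraries were all above the controls. Among them, named after their values were seen, Ngp (a neutrophil granule protein) had 46 counts over the 10 mg/kg group against 8 in its controls, Retnlg 37 against 6, Il1r2 (the decoy receptor of interleukin-1) 29 against 7, Camp (cathelicidin) 16 against 0 and the chemokine receptor Cxcr2 15 against 0. Ly6g, the surface marker used to gate mouse neutrophils, had 2 counts against 0. The sum of these scarce genes overlapped its controls in the 3 mg/kg libraries, at 2, 0.833 and 1.49 CPM, against 0.756, 1.76, 0.908 and 1.42 CPM. Every 2nd-set control thus lay below every 1st-set control in this sum, so the difference at 10 mg/kg starts from a low control level.

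At 3 mg/kg edgeR called none of the 8 further neutrophil genes that were tested. Of these, 2 were under an unadjusted p of 0.05, as were 429 of all 17467 genes tested. With a median of 0.35, 7 were positive, as were 50.9% of all genes tested. DESeq2 and limma called none. Lcn2 averaged 5.59 ± 7.09 CPM (SD, n = 3), against 0.375 ± 0.470 CPM in the 1st-set controls (SD, n = 4), without overlap. One exposed library held 206 of the group's 250 counts. Among neutrophil precursor genes, 1 of 5 could be tested, Prtn3, at 0.60 for 10 mg/kg (adjusted p = 0.588).

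The other red cell genes gave few counts and no call by edgeR, DESeq2 or limma. Of 14 further genes in the table, the 1 tested was Ermap, a red cell membrane adhesion protein, at 0.697 ± 0.259 CPM at 10 mg/kg, against 1.19 ± 0.394 CPM in the 2nd-set controls (SD, n = 3 each; log2 fold change -0.77, adjusted p = 0.566). The 13 scarcer genes summed to 0.546, 0.503 and 1.12 CPM, against 0.329, 0.966 and 0.802 CPM, with overlap. Rhag, a red cell membrane protein, was at 0 in every library. In all, 10 genes of heme synthesis and its iron supply other than Alas2 were tested; edgeR, DESeq2 and limma called none at either dose, none was under an unadjusted p of 0.05 by edgeR, and the median was -0.03 at 10 mg/kg.

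Genes that take up and clear hemoglobin and iron gave 2 calls of 9 tested at 10 mg/kg. Cd163, the macrophage receptor for hemoglobin bound to haptoglobin, rose to 2.35 ± 0.406 CPM, against 0.678 ± 0.318 CPM in the 2nd-set controls (SD, n = 3 each; log2 fold change 1.72, SE 0.37, adjusted p = 0.0488). Slc40a1 (ferroportin), the iron exporter, fell to 7.54 ± 0.228 CPM, against 14.1 ± 2.58 CPM (-0.89, SE 0.16, adjusted p = 0.0173). DESeq2 called the same 2, and limma neither. Between the control groups edgeR called both lower in the 2nd set, as it did 8.74% of all genes. Cd163 was at -1.84 there (adjusted p = 0.00460) and Slc40a1 at -0.46 (adjusted p = 0.0380), so the rise of Cd163 starts from a low control level. Hmox1, which breaks down heme and is named after its values were seen, was at 0.68 on the log2 scale (SE 0.20, adjusted p = 0.190). At 3 mg/kg edgeR, DESeq2 and limma called none of the 9, and none was under an unadjusted p of 0.05 by edgeR.

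Relatives and partners of the members gave no calls by edgeR at 10 mg/kg. Of 9 other S100 genes tested, 1 was under an unadjusted p of 0.05, S100a10, at -0.73 (SE 0.16, adjusted p = 0.0506), which DESeq2 called; the median of the 9 was 0.20. Of 8 receptors and surface partners of calprotectin, 1 was under an unadjusted p of 0.05 (Alcam, 0.50, adjusted p = 0.243) and DESeq2 called none. Tlr4 averaged 4.45 ± 1.85 CPM, against 1.30 ± 0.483 CPM (SD, n = 3 each; 1.79, SE 0.93, adjusted p = 0.611). Of 7 other bicarbonate carriers of the SLC4 family, 1 was under an unadjusted p of 0.05, Slc4a11 (1.32, SE 0.55, adjusted p = 0.427), and DESeq2 called none. Limma called none in these 3 lists. Between the control groups edgeR called S100a10 higher in the 2nd set (1.39, adjusted p = 0.000132). It called Alcam (-0.51, adjusted p = 0.0332) and Slc4a11 (-1.60, adjusted p = 0.0482) lower there. Tlr4 was at -1.83 (adjusted p = 0.175). Each of these lay on the side opposite to its value at 10 mg/kg.

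Markers of other cells that could come with blood were read in the same way. Monocyte genes lay on the same side as the calprotectin pair. Of 10 listed, 5 were tested, all positive and under an unadjusted p of 0.05 at 10 mg/kg (median 1.20), as were 1685 of all 17467 genes tested under that p. EdgeR and limma called none. The 2nd-set controls were low for these genes against the 1st-set controls, with a median of -0.42 and 1 of the 5 positive. There edgeR called Ccr2 lower (-2.64, adjusted p = 0.00674), as it did 8.74% of all genes. DESeq2 called F13a1 (1.20, SE 0.29, edgeR adjusted p = 0.0923) and Lyz2, lysozyme (1.06, SE 0.28, edgeR adjusted p = 0.126). The 10 monocyte genes summed to 19.4 to 40.5 CPM at 10 mg/kg, against 10.4 to 16 CPM in the 2nd-set controls, and to 21.0 to 32.0 CPM at 3 mg/kg, against 16.4 to 22.1 CPM in the 1st-set controls. Treml4 was at 0 in all libraries of the 2nd set and in all 1st-set controls, and Ly6c2 was at 0 in all 2nd-set controls. The part of monocytes in the S100a8 and S100a9 values was not tested.

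Platelet, lymphocyte and vessel markers gave no calls by edgeR, DESeq2 or limma at 10 mg/kg. Of 3 platelet genes tested, 1 was under an unadjusted p of 0.05 (Pf4, 1.39, SE 0.52, adjusted p = 0.353), and the 12 listed summed to 9.53 to 14.3 CPM, against 10.7 to 11.7 CPM in the 2nd-set controls. The 1 lymphocyte gene tested, Ighm, was at 0.12. Of 10 endothelial genes, 3 were under an unadjusted p of 0.05, as were 1685 of all 17467 genes tested. They went both ways, with Tek at -0.46, Ly6c1 at 0.44 and, named after its value was seen, Cdh5 at 0.33. The median of the 10 was 0.03, with sums of 237 to 294 CPM against 211 to 298 CPM. Between the control groups edgeR called 5 of the 10 lower in the 2nd set, among them Cdh5 (-1.09). The 10 microglial genes had a median of 0.10, with 3 under an unadjusted p of 0.05 and none called by edgeR or limma; DESeq2 called Olfml3 and Fcrls. Bulb markers summed to 4416 to 4813 CPM at 10 mg/kg, against 5010 to 5823 CPM in the 2nd-set controls, and to 4676 to 4876 CPM at 3 mg/kg, against 4246 to 4668 CPM in the 1st-set controls. Whether the tissue taken in each dissection bears on the members' values was not tested.

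The promoters of the members are shown because all 8 fold changes were positive at 10 mg/kg. RefSeq (GRCm38.p6) gave a start for 7 of the 8. Each line is the 120 bases before that start, with matches in either strand to 4 motifs in capitals: the CACCC box (bound by Klf1 in red cell genes), the CCAAT box, the GATAA site (bound by Gata1) and the TATAA box. The windows of S100a8, Hbb-bs, Hbb-bt, Hba-a1, Hba-a2 and Alas2 end inside the GENCODE gene bounds, since the RefSeq start lies downstream of the GENCODE one. Those of Hbb-bs and Hba-a1 lie wholly inside these bounds. Hba-a2 is not printed, since its window repeats that of Hba-a1: the alpha promoters share a run of 297 of 300 bases.
S100a8 (chr3:90668951-90669070, plus strand): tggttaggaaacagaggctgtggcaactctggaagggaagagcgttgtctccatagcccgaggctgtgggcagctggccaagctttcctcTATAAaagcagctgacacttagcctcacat
S100a9 (chr3:90695722-90695841, minus strand): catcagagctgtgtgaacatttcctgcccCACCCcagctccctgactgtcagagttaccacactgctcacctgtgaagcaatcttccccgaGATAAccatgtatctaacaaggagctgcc
Hbb-bs (chr7:103827929-103828048, minus strand): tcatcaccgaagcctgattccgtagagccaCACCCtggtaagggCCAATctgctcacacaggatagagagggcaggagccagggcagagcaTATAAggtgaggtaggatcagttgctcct
Hbb-bt (chr7:103813924-103814043, minus strand): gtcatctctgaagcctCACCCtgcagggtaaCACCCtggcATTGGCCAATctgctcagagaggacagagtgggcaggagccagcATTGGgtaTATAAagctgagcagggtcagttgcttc
Hba-a1 (chr11:32283552-32283671, plus strand): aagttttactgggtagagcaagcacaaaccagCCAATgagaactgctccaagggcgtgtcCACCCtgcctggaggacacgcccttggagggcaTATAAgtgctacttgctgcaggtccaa
Alas2 (chrX:150547297-150547416, plus strand): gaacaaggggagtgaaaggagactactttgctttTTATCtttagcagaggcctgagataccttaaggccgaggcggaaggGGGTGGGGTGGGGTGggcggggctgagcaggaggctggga
All 4 globin windows held a CACCC box, a CCAAT box and a TATAA box. The Alas2 window held the CACCC box 3 times and the GATAA site once. The S100a8 window held the TATAA box alone, and that of S100a9 had a CACCC box with a GATAA site. No 2 matches overlapped. Over 32851 windows of the same length, 31.7% held the CACCC box, 21.3% the CCAAT box, 10.5% the GATAA site and 11.8% the TATAA box. These matches describe the letters of the windows and say nothing of binding in the bulb.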

How the data were processed

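Olfactory bulb RNA of 13 samples was sequenced from TruSeq Stranded Total RNA libraries of RNeasy-extracted RNA, per the labels' protocols. HISAT2 and mm10 are named in the submitters' processing notes; no label or header names the counting program, annotation release or strand setting, which are not given in the sources used. The authors deposited a raw count and an FPKM value per gene and library.

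Counts were tested with edgeR 4.0.16 (R 4.3.3), by its quasi-likelihood test with robust estimation and TMM factors, in 1 fit of 4 groups (9 residual degrees of freedom). Of 34745 genes, 17467 passed filterByExpr. P-values were adjusted by Benjamini-Hochberg and called at 0.05. The SE, an approximation, is the log2 fold change over the root of F. The fit was run on simulated counts before use. These had the same spread in all libraries and no difference between the sets, so they could not check a fit shared by sets that may differ in spread. FPKM was used to compare levels between genes and, with a pseudocount of 1 or 0.1, in limma 3.58.1; DESeq2 1.42.0 was a further alternative. No p-value is given for sums over the members. Correlations used log2 CPM centred on group means, with all 5184 orders within groups permuted. Library totals were 13 to 27.0 M counts, and Poisson intervals cover counting error only.

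The members and the gene lists were chosen with earlier results of these data known. Genes named from a list are the 2 with the smallest p at 10 mg/kg, beside those said to be chosen later. No 2 replicates agreed within sampling noise (lowest chi-square per gene 5.79). The chi-square per gene was 5.79 to 9.53 within groups of the 1st set. Within groups of the 2nd set, whose libraries were deeper, it was 12.9 to 43.5. Member coordinates equal those of GENCODE M21. Some items that the rule selects are not reported here.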

Additional observations from a re-analysis of the deposited data

Results flagged for a closer look

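The 1st-set controls are the 1 group with 4 libraries, and 17 measures were checked within it for a library far from the rest. By its construction the check marks about 1 in 20 groups by chance, and the 17 measures share the same 4 libraries. In both results marked, the library was control replicate 4. The Slc4a1 level of that library was 0.992 CPM (14 counts), while the other controls of the 1st set had 0.141 to 0.279 CPM (2 to 4 counts). Its ratio of S100a8 to S100a9 in FPKM was 4.44, while the others had 0.317 to 0.616. The same library held 18 counts of S100a8 and 3 of S100a9, and the highest Hbb-bs level of its group, at 61.1 CPM.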

How the results depend on the processing

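The number of the 8 transcripts called at 10 mg/kg, 1 in the report, was 4 by DESeq2, 2 by limma on log2(FPKM + 1), and 0 when a gene needed 1 CPM in each library, with a replicate block or with the 2nd set fitted alone. Leaving out 1 library gave 0 to 2. Over all genes the 112 calls at 10 mg/kg became 291 by DESeq2, 69 with the stricter filter, 5 with the replicate block and 4 with the set fitted alone (21 to 138 leaving out 1 library). At 3 mg/kg the count of 0 over all genes became 19 by DESeq2, 2 by limma on log2(FPKM + 1) and 9 with the 1st set fitted alone (0 to 2 leaving out 1 library). For the difference of doses the 1 call became 17 by DESeq2, 2 without a filter and 0 by limma on log2(FPKM + 1) or with the block (0 to 6 leaving out 1 library). Between the controls the 1 call among the 8 became 2 by DESeq2 and 0 with the stricter filter or by limma at either pseudocount (0 to 2 leaving out 1 library), and the 3364 calls over all genes ranged from 1340 to 4073 leaving out 1 library. With the stricter filter neither S100a8, S100a9 nor Slc4a1 was tested.

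With the replicate block S100a9 had a log2 fold change of 2.62 at 10 mg/kg (adjusted p = 0.0871). Same-numbered samples correlated at -0.38 to 0.13 in their deviations from the group means. Samples with different numbers were not compared, so these values cannot decide whether the numbers pair the samples.

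The values that changed sign were not called in any of these comparisons. In the difference of doses Hba-a2 was -0.016 by limma on log2(FPKM + 0.1) and -0.23 with the block, and -0.17 to 0.44 leaving out 1 library; Hba-a1 was -0.056 with the block and -0.032 to 0.57 leaving out 1 library. Between controls S100a9 was 0.037 without a filter and -0.27 to 0.25 leaving out 1 library, and S100a8 was -0.12 to 1.15. Slc4a1 at 3 mg/kg was -0.29 to 0.32 over 12 of the 13 fits that left out 1 library; without replicate 4 of the 1st-set controls, which held 14 of the 23 control counts, the gene fell below the filter and has no fitted value. The causes were not tested. The calprotectin and globin sums, their ratio and their correlation moved by less than 1 SD, or kept their side of the threshold, under every alternative run. Depth limits Slc4a1, S100a8 and S100a9 most, with 0 to 32 counts in each control library.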

Other observations

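Genes whose level followed the calprotectin or globin sum closely from library to library were listed as a description, from 13851 genes with a mean of at least 1 CPM, as Pearson r of log2 values centred on group means over 13 libraries that share preparation and sequencing. For the calprotectin sum these were Snx6 (r = 0.94), Ppp2r2d (0.94), Tmem128 (0.92), Tbc1d7 (0.92) and Ppif (0.92), and for the globin sum Cpne9 (0.89), Tsr1 (0.88), Igf2 (0.87) and Trappc6b (0.86). None of these 9 passed the test at 10 mg/kg by edgeR; the smallest adjusted p among them was 0.0979, for Cpne9. With so many genes compared over so few libraries, values of this size are given with no test.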
